A study of Mus musculus with 24 samples.

Results

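The core circadian clock genes Per1, Per2, Per3, Cry1, Cry2, Dbp, Tef, Nr1d1, Nr1d2 and Arntl were followed through 4 tissues of the female reproductive axis in wild-type mice and in mice labelled as Kdm4a knockout. The 10 genes were chosen by symbol, all 10 were present among the 24195 gene symbols of the count tables, and all 10 passed the filter on low counts in every tissue. Whole ovary, uterus, pituitary and hypothalamus came from mated C57BL6 females aged 8 to 10 weeks at 2.5 days post coitus, when embryos are not yet implanted. Each tissue had 3 wild-type and 3 KO-labelled libraries, 24 in all, which the labels call biological replicates. One protocol of housing, mating and dissection is given for all females, and the labels separate the groups by tissue and genotype only. The labels give neither the Kdm4a allele nor the time of day at which tissues were taken, and do not say whether libraries with the same number came from the same animal. The part of collection time in any difference between these libraries was therefore not tested.

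The mammalian clock is a transcriptional feedback loop. BMAL1, the protein of Arntl, pairs with CLOCK and activates genes that carry E-boxes, among them the Per and Cry genes, Nr1d1, Nr1d2, Dbp and Tef. PER and CRY proteins return to the nucleus and inhibit that pair, while the nuclear receptors encoded by Nr1d1 and Nr1d2 (REV-ERB alpha and beta) repress Arntl. Dbp and Tef encode PAR bZIP activators that bind D-boxes and carry the rhythm to output genes. Over a day in peripheral mouse tissues, transcripts of Arntl are high when those of Dbp, Tef and Nr1d1 are low. The suprachiasmatic nucleus of the hypothalamus sets the phase of the other tissues, and Per1 and Per2 also respond to glucocorticoids and to signals through cyclic AMP.

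Promoters of genes that share these elements are shown for 5 members, because they carry the letters through which the loop is known to act. RefSeq promoter entries (GRCm38.p6, 250 bases before to 50 bases after the start site) matched 9 of the 10 genes in 12 windows, and Per2 was not matched. Sequences run 5′ to 3′ on the strand of the gene, and capitals mark motif matches.

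Per3, chr4:151044616-151044915, minus strand: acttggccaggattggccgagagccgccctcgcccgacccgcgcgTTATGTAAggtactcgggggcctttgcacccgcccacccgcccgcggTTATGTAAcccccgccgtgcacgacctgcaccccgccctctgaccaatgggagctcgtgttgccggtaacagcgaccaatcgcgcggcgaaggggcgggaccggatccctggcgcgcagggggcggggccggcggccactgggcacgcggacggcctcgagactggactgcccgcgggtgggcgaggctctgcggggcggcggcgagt
Cry1, chr10:85185005-85185304, minus strand: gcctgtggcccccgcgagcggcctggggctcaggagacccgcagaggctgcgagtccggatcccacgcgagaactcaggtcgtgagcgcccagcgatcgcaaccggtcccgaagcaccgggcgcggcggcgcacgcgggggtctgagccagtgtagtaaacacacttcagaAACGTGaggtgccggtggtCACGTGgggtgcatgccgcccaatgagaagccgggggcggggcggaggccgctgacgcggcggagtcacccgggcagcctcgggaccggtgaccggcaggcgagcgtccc
Tef, chr15:81802423-81802722, plus strand: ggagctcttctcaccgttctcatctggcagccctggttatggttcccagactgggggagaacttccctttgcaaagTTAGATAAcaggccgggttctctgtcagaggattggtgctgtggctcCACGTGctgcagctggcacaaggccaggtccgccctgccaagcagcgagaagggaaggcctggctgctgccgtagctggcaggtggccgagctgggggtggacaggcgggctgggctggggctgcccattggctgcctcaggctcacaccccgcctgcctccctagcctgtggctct
Nr1d1, chr11:98775328-98775627, minus strand: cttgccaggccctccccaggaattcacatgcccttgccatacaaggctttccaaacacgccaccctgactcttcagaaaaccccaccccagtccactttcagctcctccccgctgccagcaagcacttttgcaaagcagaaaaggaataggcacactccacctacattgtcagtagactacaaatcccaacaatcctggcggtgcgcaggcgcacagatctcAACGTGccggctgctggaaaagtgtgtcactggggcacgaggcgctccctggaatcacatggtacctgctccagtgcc
Arntl, chr7:113207261-113207560, plus strand: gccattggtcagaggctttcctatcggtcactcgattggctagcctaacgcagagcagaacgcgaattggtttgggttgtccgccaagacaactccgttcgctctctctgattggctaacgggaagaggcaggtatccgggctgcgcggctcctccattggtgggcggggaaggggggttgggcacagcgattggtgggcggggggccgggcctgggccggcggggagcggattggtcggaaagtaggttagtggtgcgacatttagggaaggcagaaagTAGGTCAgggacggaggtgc

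In Per3 the capitals are 2 copies of the D-box TTANNTAA, the element bound by DBP and TEF, at -205 and -158 relative to the start site. In Cry1 they are the E-box CACGTG and, on the other strand, the E-prime box CACGTT. In Tef they are the E-box and TTAGATAA, which matches the pattern TTANNTAA with other middle letters than the TTATGTAA of Per3. Whether DBP or TEF bind that form was not tested. In Nr1d1 they are the E-prime box on the other strand. In Arntl they are TAGGTCA, an extended form of the nuclear receptor element AGGTCA, beginning 31 bases after the start site. Both strands were searched in each window. CACGTG was found in 3 of the 9 genes (Per1, Cry1 and Tef). That was 4 of their 12 windows, against 7.15% of 32851 mouse promoter windows of the same length. For the patterns that follow, the counts of genes and of windows were the same. CACGTT was found in 3 (Cry1, Cry2 and Nr1d1) against 4.68%, TTANNTAA in 2 against 6%, AGGTCA in 3 (Per1, Nr1d2 and Arntl) against 16.3% and TAGGTCA in 1 against 2.61%. The cyclic AMP response element TGACGTCA was found in 0 windows, against 1.79% of all promoters. The window of Dbp held none of these patterns. Matches and absences describe letters within 300 bases only.

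Libraries held 13201596 to 23865382 counts, and a member had 87 to 5665 counts in a library, for which counting alone gives a relative error of 10.7% to 1.33%. Levels are given in CPM, counts relative to the library total, with totals scaled by TMM over all 24 libraries. In each tissue all 8 defining markers of that tissue averaged at least 1 CPM in both genotypes. The 8 markers of the suprachiasmatic nucleus summed to 304 to 522 CPM in the hypothalamus, where all 8 averaged at least 1 CPM. The same list summed to 275 to 381 CPM in wild-type and 286 to 334 in KO-labelled pituitary, where 3 averaged at least 1 CPM. That sum therefore does not show how much of the nucleus was sampled. Kdm4a counts separated the genotypes in the uterus only, at 78.9 to 89.5 CPM in wild type against 58.8 to 64.0, so libraries are called KO-labelled. Its ranges over 6 libraries were 33.4 to 79.1 CPM in the ovary, 47.0 to 69.2 in the pituitary and 28.6 to 66.9 in the hypothalamus. KO-labelled ovary library 2 stood apart, with 3.87% of its counts on the ribosomal gene Rn45s and a rank correlation of -0.52 between each gene's deviation from the ovary mean and its transcript length, against 0.16 to 0.36 in the other 5 ovary libraries. In the hypothalamus this correlation ran from -0.61 to 0.63. It was -0.48 in KO-labelled pituitary library 1 against -0.04 to 0.27 in the other 5 pituitary libraries, and -0.38 in KO-labelled uterus library 1 against 0.04 to 0.30 in the other 5 there. In bulk tissue, fewer cells of a type and less RNA per cell cannot be told apart.

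Expressed per kilobase of exon, the levels of the 10 genes fell into a similar order in the 4 wild-type tissues. Nr1d2 was highest in each, at 29.8, 11.1, 43.6 and 40.3 CPM per kb in ovary, uterus, pituitary and hypothalamus, followed by Nr1d1 at 23.7, 10.5, 32.2 and 29.2. Tef measured 12.4, 10.1, 17.5 and 28.9 CPM per kb, and Dbp 16.5, 6.91, 14.5 and 16.5. Per2, Per3 and Arntl were the lowest 3 in all 4 tissues, between 1.73 and 4.10 CPM per kb. Neighbours such as Nr1d1 and Nr1d2 in the uterus lay within 1 SD of each other and were not tested against each other.

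The clock genes differed between wild-type tissues in 8 of 10 cases, as did 93.4% of the 16399 genes tested (edgeR quasi-likelihood F test over the 4 tissues, FDR 0.05), so this count does not set them apart. Per3 and Arntl did not pass, with adjusted p of 0.227 and 0.216. In the KO-labelled libraries 6 of 10 passed, against 84.5% of 16545 genes, and all 6 were among the 8. Of the 60 pairwise tissue contrasts in wild type, 26 passed FDR 0.05. Of those 26, 16 also passed in KO-labelled libraries, in the same direction in 16. By pair, KO-labelled libraries gave 6 members between pituitary and uterus (59.5% of all genes), 4 between hypothalamus and ovary (61.3%), 3 between hypothalamus and uterus (65.5%), 2 between uterus and ovary (40.2%), 2 between pituitary and ovary (50.4%) and 1 between hypothalamus and pituitary (50.6%).

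**Figure D1:**
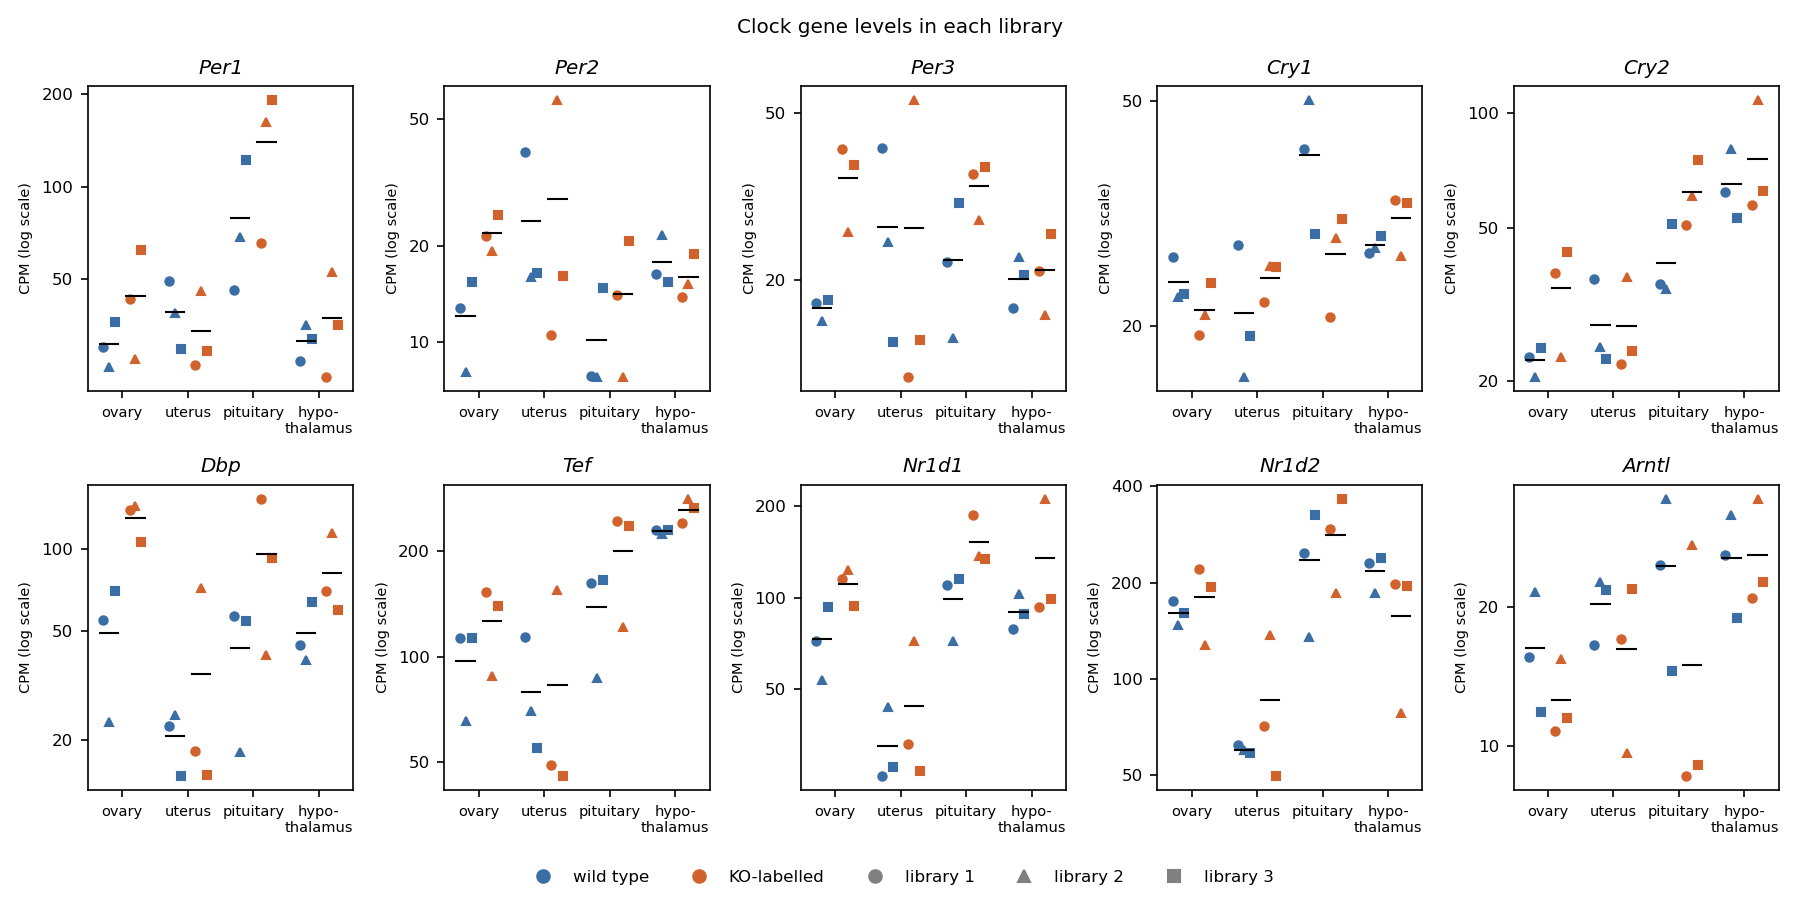
CPM of each clock gene (log axis) in all 24 libraries by tissue, blue for wild type and orange for KO-labelled, with marker shape for the library number and a black bar for the mean of 3. Tef and Nr1d2 are lowest in the uterus, Per1 is highest in the pituitary, and Cry2 is highest in the hypothalamus.

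The activator gene Arntl did not differ detectably between the 4 wild-type tissues. It measured 15.6, 21.6 and 11.9 CPM in ovary, 16.6, 22.7 and 21.8 in uterus, 24.8, 34.3 and 14.6 in pituitary and 26.0, 31.7 and 18.9 in hypothalamus. The order of the means was hypothalamus, pituitary, uterus and ovary, and the values of all neighbours in that order overlapped.

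Among the repressors, Per1 was highest in the pituitary. It averaged 78.8 ± 39.0 CPM in wild-type pituitary (SD, n = 3), 39.0 ± 9.77 in uterus, 31.3 ± 4.19 in hypothalamus and 30.6 ± 5.24 in ovary. The pituitary exceeded the ovary by 1.39 (log2, SE 0.29, edgeR adjusted p = 0.000792), the hypothalamus by 1.43 (SE 0.29, adjusted p = 0.000664) and the uterus by 1.02 (SE 0.29, adjusted p = 0.00573). Without wild-type pituitary library 3, at 122 CPM, the contrast with the uterus no longer passed (adjusted p = 0.0579), and its size lay between 0.56 and 1.29 over the 6 fits that each left out 1 library.

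Per2, its close relative, was highest in the uterus at 23.98 ± 13.3 CPM and lowest in the pituitary at 10.1 ± 4.05. The pituitary lay below the uterus by a log2 difference of -1.24 (SE 0.37, edgeR adjusted p = 0.00825), and the uterus was higher than the ovary, at 12.1 ± 3.75 CPM (adjusted p = 0.0275). Both rested in part on wild-type uterus library 1, at 39.4 CPM against 16.1 and 16.5 in the other uterus libraries. Without that library the adjusted p of the pituitary contrast was 0.0823. The contrast with the ovary ended without that library or without wild-type ovary library 1 or 2 (adjusted p up to 0.265). Neither passed in KO-labelled libraries, at adjusted p of 0.114 and 0.604. Per3 ranged only from 17.2 ± 1.06 CPM in ovary to 26.7 ± 13.7 in uterus, and in no tissue pair did it pass.

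Cry1 was highest in the wild-type pituitary at 40.2 ± 10.6 CPM, above the ovary by 0.78 (log2, SE 0.22, edgeR adjusted p = 0.00668) and the uterus by 0.94 (SE 0.22, adjusted p = 0.00155). It was lower in the hypothalamus than in the pituitary by a log2 difference of -0.63 (SE 0.22, adjusted p = 0.0212), a call that ended without wild-type pituitary library 1 or 2 or hypothalamus library 1 (adjusted p up to 0.120). In KO-labelled libraries that contrast was 0.21, on the other side of 0, and did not pass (adjusted p = 0.443). The contrasts of pituitary with ovary and uterus did not pass there either, at 0.33 (adjusted p = 0.228) and 0.14 (adjusted p = 0.599). Cry2 was highest in the hypothalamus, where it measured 62.2, 80.3 and 53.0 CPM against 23.0, 20.4 and 24.4 in the ovary. The 2 groups did not overlap, and the difference was 1.45 (SE 0.22, adjusted p = 3.61e-05), with 1.13 in KO-labelled libraries (adjusted p = 0.00686). Its contrast of hypothalamus with pituitary ended without wild-type pituitary library 1 or 2 or hypothalamus library 1 or 2 (adjusted p up to 0.128) and did not pass in KO-labelled libraries (0.467). Exons of Cry2 share 295 bases with D930015M05Rik on the other strand, and in an unstranded library reads of the pair cannot be told apart.

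The repressors of Arntl were scarce in the uterus. Nr1d2 measured 62.0, 60.0 and 58.5 CPM there, against 175, 147 and 161 in ovary, 247, 135 and 325 in pituitary and 229.6, 186 and 238 in hypothalamus. The 3 uterus values were tight and lay below every value of the other tissues. The differences from the uterus were 1.98 in pituitary (log2, SE 0.24, edgeR adjusted p = 3.58e-06), 1.76 in hypothalamus (SE 0.23, adjusted p = 7.45e-06) and 1.40 in ovary (SE 0.23, adjusted p = 0.00013). In KO-labelled libraries the same contrasts were 1.71, 0.87 and 1.06, and only the pituitary one passed there (adjusted p = 0.00345, 0.0815 and 0.0580). Nr1d1 had the same low level in the uterus, 32.3 ± 9.69 CPM against 72.9 ± 19.9 in ovary, 99.0 ± 23.4 in pituitary and 89.8 ± 12.4 in hypothalamus. All 3 of those contrasts passed in both sets of libraries. Exons of Nr1d1 share 263 bases, 8.55% of their length, with Thra on the other strand.

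Dbp was lower in the uterus than in each of the other tissues, and Tef was highest in the hypothalamus. Dbp averaged 20.7 ± 5.26 CPM in the wild-type uterus and 49.5 ± 23.9, 43.3 ± 21.9 and 49.5 ± 13.1 in ovary, pituitary and hypothalamus. Its 3 contrasts with the uterus passed at edgeR adjusted p of 0.0182, 0.0325 and 0.0194. All 3 calls ended without wild-type uterus library 3. The first also ended without ovary library 3, the second without uterus library 1 or pituitary library 1 or 3, and the third without hypothalamus library 3 (adjusted p up to 0.132). With no filter on low counts, or with limma-voom, the pituitary contrast had adjusted p of 0.0660 and 0.0855. In KO-labelled libraries the hypothalamus contrast did not pass (adjusted p = 0.0670). Tef in the hypothalamus measured 229.6, 223 and 229.5 CPM, all above every library of the other wild-type tissues, which ran from 55.1 to 165. The hypothalamus exceeded the uterus by 1.42 (log2, SE 0.29, adjusted p = 0.000381) and the ovary by 1.15 (SE 0.28, adjusted p = 0.00219), and both contrasts also passed in KO-labelled libraries. Tef averaged 79.6 ± 30.5 CPM in the uterus and 97.3 ± 27.6 in the ovary, which did not differ detectably (adjusted p = 0.420). Exons of Dbp share 539 bases, 18% of their length, with Sphk2 on the other strand.

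Counted over tissue pairs, the pituitary and the uterus differed in 8 of 10 members, against 69.3% of all genes, 7 of them higher in the pituitary and only Per2 lower. Without wild-type pituitary library 3 the calls of Per1, Cry2, Dbp and Tef for this pair ended, at edgeR adjusted p of 0.0579, 0.215, 0.122 and 0.0889. The Cry2 call also ended without uterus library 2 or 3 and with the replicate block (adjusted p = 0.0522), and the Tef call without uterus library 2 or 3 or pituitary library 1 (adjusted p of 0.0763 or above). The hypothalamus was higher than the uterus in 5 (75.7% of all genes passed), the uterus differed from the ovary in 4 (59.1%), with Per2 higher and Dbp, Nr1d1 and Nr1d2 lower, and the pituitary was higher than the ovary in 4 (61.6%). The hypothalamus differed from the pituitary in 3 (61.1%) and from the ovary in 2 (71.4%). Pituitary libraries are scaled up by TMM, 1 count being worth 0.074 to 0.09 CPM there and 0.0388 to 0.0729 in the other tissues, so contrasts with the pituitary depend on the scaling. With scaling by DESeq2 size factors, the call that ended was Nr1d2 in pituitary against ovary (adjusted p = 0.0546). That call also ended with limma-voom, in KO-labelled libraries, and without any 1 of the ovary libraries or pituitary library 1 or 3 (adjusted p up to 0.296).

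Libraries of the same tissue and genotype differed more in the clock genes than in most genes in 2 of the 4 tissues. In the uterus the median within-group SD of the 10 members was 0.56 on the log2 scale, against 0.22 over all 14910 genes tested. All 10 members lay above the median gene there and 7 above the 90th percentile, led by Per2 (SD 1.02, percentile 99.7), Per3 (0.98, 99.6) and Dbp (0.90, 99.4). The highest library over the lowest had a median across members of 1.68 in wild-type and 2.73 in KO-labelled uterus. KO-labelled uterus library 2 was the highest of its group in 9 members. In the pituitary the medians were 0.56 and 0.25, with 10 members above the median gene and 6 above the 90th percentile, among them Dbp (0.94, 99.4), Per1 (0.77, 98.2) and Arntl (0.77, 98.2). In the ovary the medians were 0.35 and 0.33, and in the hypothalamus 0.39 and 0.35, with 6 members above the median gene and 0 above the 90th percentile in each. Tef in the hypothalamus was among the least variable of all genes (SD 0.08, percentile 0.92), as was Cry1 (0.14, 4.74).

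**Figure D2:**
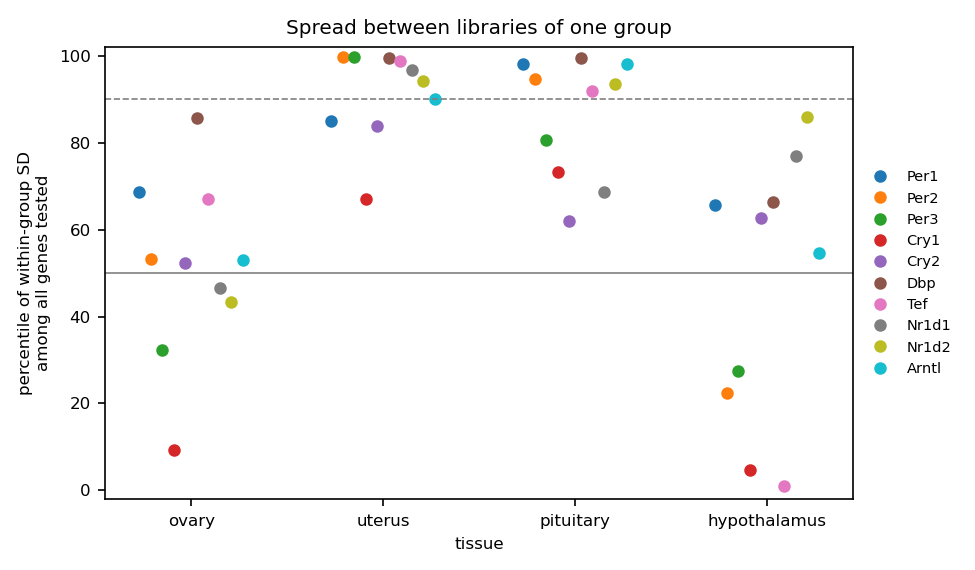
Percentile of each clock gene's within-group SD of log2(CPM + 0.5) among all genes tested in that tissue, with the 50th (solid) and 90th (dashed) percentiles marked. All 10 genes lie above the 50th percentile in uterus and pituitary, and 6 of 10 in ovary and hypothalamus.

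The genotype comparison asked whether the clock genes differ between KO-labelled and wild-type mice in each tissue. Not 1 of the 10 genes passed FDR 0.05 in any tissue by edgeR, with smallest adjusted p of 0.597 in ovary, 0.539 in uterus, 0.292 in pituitary and 0.588 in hypothalamus. DESeq2 called 1 member, Per3 in the ovary, and 0 in the other tissues, and limma-voom called 0. Among all genes DESeq2 called 56 in ovary, 537 in uterus, 50 in pituitary and 8 in hypothalamus. Limma-voom called 0, 45, 1 and 0 in that order. Over all genes, 0% passed by edgeR in the ovary, 0.349% in the uterus, 0.0424% in the pituitary and 0% in the hypothalamus. At an unadjusted p under 0.05 the members counted 5 in ovary (7.68% of all genes), 0 in uterus (12.7%), 4 in pituitary (12.3%) and 1 in hypothalamus (6.76%). The genotype effect also did not differ detectably between tissues, with 0 of 10 members past FDR 0.05 for the tissue by genotype interaction (0.053% of 16971 genes), 0 at an unadjusted p under 0.05, and a lowest adjusted p of 0.697 for Cry1.

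**Figure D3:**
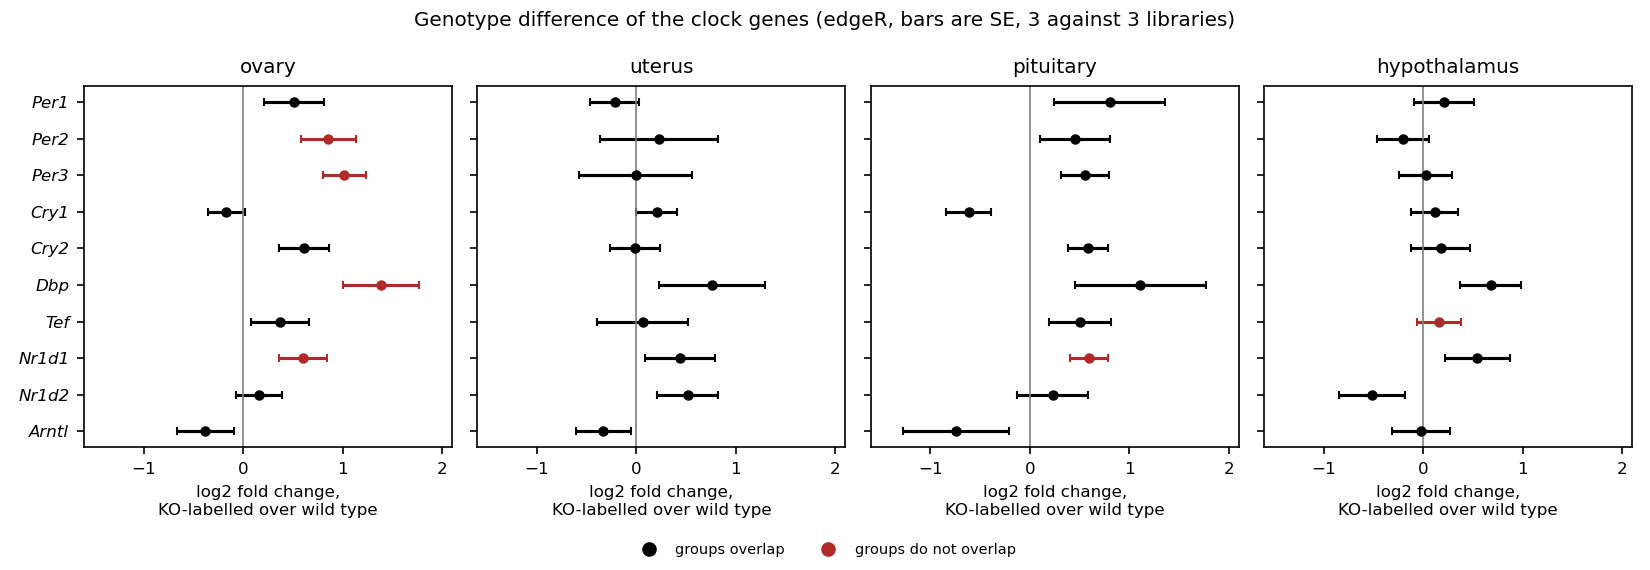
Log2 fold change of KO-labelled over wild type for each clock gene in 4 tissues, with bars of 1 SE, and red where the 3 libraries of a genotype do not overlap the other 3. The values not overlapping are Per2, Per3, Dbp and Nr1d1 in ovary, Nr1d1 in pituitary and Tef in hypothalamus, and no value passed FDR 0.05.

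In the ovary most period, cryptochrome, REV-ERB and output transcripts had higher means in KO-labelled mice, none of them past the test across all genes by edgeR. The median log2 fold change of the 10 members was 0.56, against 0.03 over all genes tested, with 8 positive and 2 negative, Cry1 and Arntl. In 4 members, Per2, Per3, Dbp and Nr1d1, every KO-labelled library was above every wild-type library, and groups failed to overlap in 17.6% of all genes.

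Dbp measured 54.9, 23.3 and 70.3 CPM in wild-type against 139, 144 and 106 in KO-labelled ovary. The KO-labelled values were all high, and wild-type library 2 was low within its group. The log2 fold change was 1.38 (SE 0.38, edgeR adjusted p = 0.597). Sphk2, which shares exon bases with Dbp, measured 22.7 to 32.1 CPM in wild type against 25.6 to 27.6 in KO-labelled ovary.

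Per3, the period gene with the 2 D-boxes shown above, measured 17.6, 16.0 and 17.9 CPM in wild type against 41.1, 26.1 and 37.7 in KO-labelled ovary. The wild-type values were tight and the groups did not overlap, with KO-labelled library 2 nearest to them. The log2 fold change was 1.02 (SE 0.22, edgeR adjusted p = 0.597). Per3 passed with DESeq2 on the same counts (adjusted p = 0.0192), with 0.0335 as its adjusted p in the authors' deposited table.

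Per2 measured 12.8, 8.06 and 15.5 CPM in wild type against 21.6, 19.3 and 25.1 in KO-labelled ovary, a log2 difference of 0.85 (SE 0.28, edgeR adjusted p = 0.597). Nr1d1 measured 71.9, 53.5 and 93.2 CPM against 115, 124 and 93.9. Its groups touched without overlapping, since wild-type library 3 and KO-labelled library 3 differed by less than 1 CPM, and the log2 fold change was 0.60 (SE 0.24, adjusted p = 0.597). Per1 measured 30.0, 25.7 and 36.1 CPM against 42.9, 27.3 and 61.8, and Cry2 23.0, 20.4 and 24.4 against 38.1, 23.0 and 43.4. In both, KO-labelled library 2 lay within the wild-type range and the other KO-labelled libraries above it.

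Arntl lay on the other side, at 15.6, 21.6 and 11.9 CPM in wild type against 10.8, 15.5 and 11.5 in KO-labelled ovary, with overlapping groups (log2 fold change -0.38, SE 0.29, edgeR adjusted p = 0.630). Cry1 measured 26.5, 22.5 and 22.8 CPM against 19.3, 20.9 and 23.8. Tef (log2 fold change 0.37, SE 0.29) and Nr1d2 (0.16, SE 0.23) overlapped as well. Without KO-labelled library 2, the library with the highest Rn45s share, 9 of the 10 members had groups that did not overlap, against 30.6% of all genes, and 0 passed FDR 0.05 (smallest adjusted p 0.0952, Per3). Wild-type library 2, lowest in Dbp and highest in Arntl, also held the most adipose transcripts, 511 CPM summed over 5 markers against 6.85 to 173 in the other 5 ovary libraries. The part of these differences in the result was not tested.

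In the pituitary the signs of the differences were like those in the ovary, and again none passed the test. The median log2 fold change was 0.53, against -0.0012 over all genes, with 8 positive and again Cry1 and Arntl negative. Groups of 1 member, Nr1d1, did not overlap, against 19.3% of all genes. Nr1d1 measured 110.1, 72.2 and 115 CPM in wild type against 188, 137 and 134 in KO-labelled pituitary, with wild-type library 2 the lowest of the 6. The log2 fold change was 0.59 (SE 0.19, edgeR adjusted p = 0.292). Thra, which shares exon bases with it, measured 123 to 138 CPM in wild type against 153 to 166 in KO-labelled pituitary, also without overlap.

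Dbp measured 57.1, 18.1 and 54.8 CPM in wild type against 153, 41.1 and 93.1 in KO-labelled pituitary. Library 2 was the lowest of its group in both genotypes, and through KO-labelled library 2 the groups overlapped. KO-labelled library 1, highest of the 6 in Dbp and Nr1d1, is the pituitary library with the correlation of -0.48 between deviation and transcript length, whose part was not tested. Sphk2 overlapped between genotypes there, at 29.5 to 37.4 against 36.9 to 40.5 CPM. The log2 fold change of 1.11 had an SE of 0.66 (edgeR adjusted p = 0.529). Tef repeated that order at 162, 86.9 and 165 CPM against 243, 122 and 234, a log2 difference of 0.50 (SE 0.31, adjusted p = 0.523).

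Arntl was the mirror of these, at 24.8, 34.3 and 14.6 CPM in wild type against 8.62, 27.2 and 9.13 in KO-labelled pituitary. Library 2 was the highest of its group in both genotypes. This difference (-0.74, SE 0.53, edgeR adjusted p = 0.589) ranged from -1.50 to -0.41 when each library was left out in turn. Cry1 measured 41.1, 50.3 and 29.1 CPM against 20.8, 28.7 and 31.0, a log2 difference of -0.62 (SE 0.22, edgeR adjusted p = 0.332).

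Per1 in the pituitary measured 46.1, 68.3 and 122 CPM in wild type against 65.2, 163 and 192 in KO-labelled libraries. Library 1 was lowest and library 3 highest in both genotypes, an order that neither Dbp nor Arntl shared. The log2 fold change was 0.80 (SE 0.56, edgeR adjusted p = 0.591). Cry2 (log2 fold change 0.59, SE 0.20) and Per3 (0.56, SE 0.24) had edgeR adjusted p of 0.310 and 0.378. Neutrophil transcripts summed over 5 markers to 9.71 to 157 CPM in wild-type against 1.81 to 4.02 in KO-labelled pituitary, with the highest sum in wild-type library 2, and their part in these values was not tested.

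In the uterus 1 library set most values. KO-labelled library 2 had 57.6 CPM of Per2 against 10.5 and 16.2 in the other KO-labelled libraries, and 53.9 CPM of Per3 against 11.8 and 14.4. It had 72.0 CPM of Dbp against 18.2 and 14.9, and 155 CPM of Tef against 49.3 and 45.7. It was the highest of the 3 KO-labelled uterus libraries in 9 members, the exception being Arntl, where it was the lowest of all 6 uterus libraries at 9.66 CPM. Wild-type library 1 deviated in the same direction for part of the set, with 39.4 CPM of Per2 against 16.1 and 16.5, 41.3 CPM of Per3 against 24.6 and 14.2, and 114 CPM of Tef against 69.9 and 55.1. It did not for Nr1d1, at 25.7 CPM against 43.4 and 27.7, or Dbp, at 22.6 CPM against 24.8 and 14.8.

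The median log2 fold change in the uterus was 0.13, with 6 positive and 4 negative, and 0 members had groups that did not overlap, against 19.5% of all genes. The values ran from -0.33 for Arntl (SE 0.28) to 0.76 for Dbp (SE 0.53, edgeR adjusted p = 0.595). Without KO-labelled library 2 the log2 fold changes of Per2, Dbp, Tef, Nr1d1 and Nr1d2 were on the other side of 0, at -0.85, -0.34, -0.75, -0.12 and -0.0039. Neutrophil markers summed to 177 to 328 CPM in wild-type against 481 to 819 in KO-labelled uterus, and oviduct markers to 101 to 128 and 46.7 to 90.7 CPM. Both sums differed between genotypes without overlap, and KO-labelled library 2 stood at an extreme of its group in the neutrophil sum only, with the lowest value, 481 CPM.

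In the hypothalamus, which holds the central pacemaker, the median log2 fold change was 0.14, with 7 positive and 3 negative. Tef was the 1 member whose groups did not overlap (11.5% of all genes), at 229.6, 223 and 229.5 CPM in wild type against 240.3, 281 and 264 in KO-labelled libraries. All 6 values were close, and the log2 fold change was 0.16 (SE 0.22, edgeR adjusted p = 0.774). Dbp measured 44.8, 39.4 and 64.2 CPM against 70.4, 114 and 60.1, a log2 difference of 0.68 (SE 0.31, edgeR adjusted p = 0.588). Sphk2, which shares exon bases with Dbp, measured 14.6, 18.6 and 16.0 CPM against 20.4, 34.0 and 19.4, without overlap. Both genes were highest in KO-labelled library 2.

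KO-labelled hypothalamus library 2 stood apart within its group, and Rn45s took 1.21% of its counts against 0.0387% to 0.287% in the other 5 hypothalamus libraries. It had 212 CPM of Nr1d1 against 93.3 and 99.0, 108 CPM of Cry2 against 57.3 and 62.5, and 78.5 CPM of Nr1d2 against 198 and 195. The related receptors Nr1d1 and Nr1d2 thus deviated in opposite directions in that library. Thra measured 981 CPM there against 510.1 and 567, and its exons overlap Nr1d1. Markers of neighbouring brain tissue summed to 49.2 CPM in that library and to 58.2 to 116 in the other 5, and the part of these values and of Rn45s was not tested. Per2 did not stand out in it, at 13.9, 15.2 and 18.9 CPM in the 3 KO-labelled libraries, and Per3 was lowest there, at 21.05, 16.6 and 25.7 CPM.

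The phase relation between the activator gene and the others was examined library by library within each tissue, over 6 libraries of both genotypes. Of 36 relations between Arntl and the 9 other genes, 28 were negative, 8 of 9 in ovary, 9 of 9 in uterus, 8 of 9 in pituitary and 3 of 9 in hypothalamus. The median Pearson r was -0.76, -0.75, -0.87 and 0.30 in that order. By the two-sided exact permutation test over 720 pairings, 13 relations had p under 0.05 and 3 passed Benjamini-Hochberg adjustment over the 36, while by Spearman's rho 0 passed. Genes outside the set were not tested against Arntl within a tissue. These counts therefore have no share of all genes beside them and do not show whether the clock genes stand apart. With 6 libraries the smallest p that the permutations can give is 0.0014 for Pearson r. For rho without ties it is 0.00278, that of Tef in the pituitary at rho = -1 (adjusted p = 0.10). A single relation could therefore not pass by rho, whatever its strength.

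**Figure D4:**
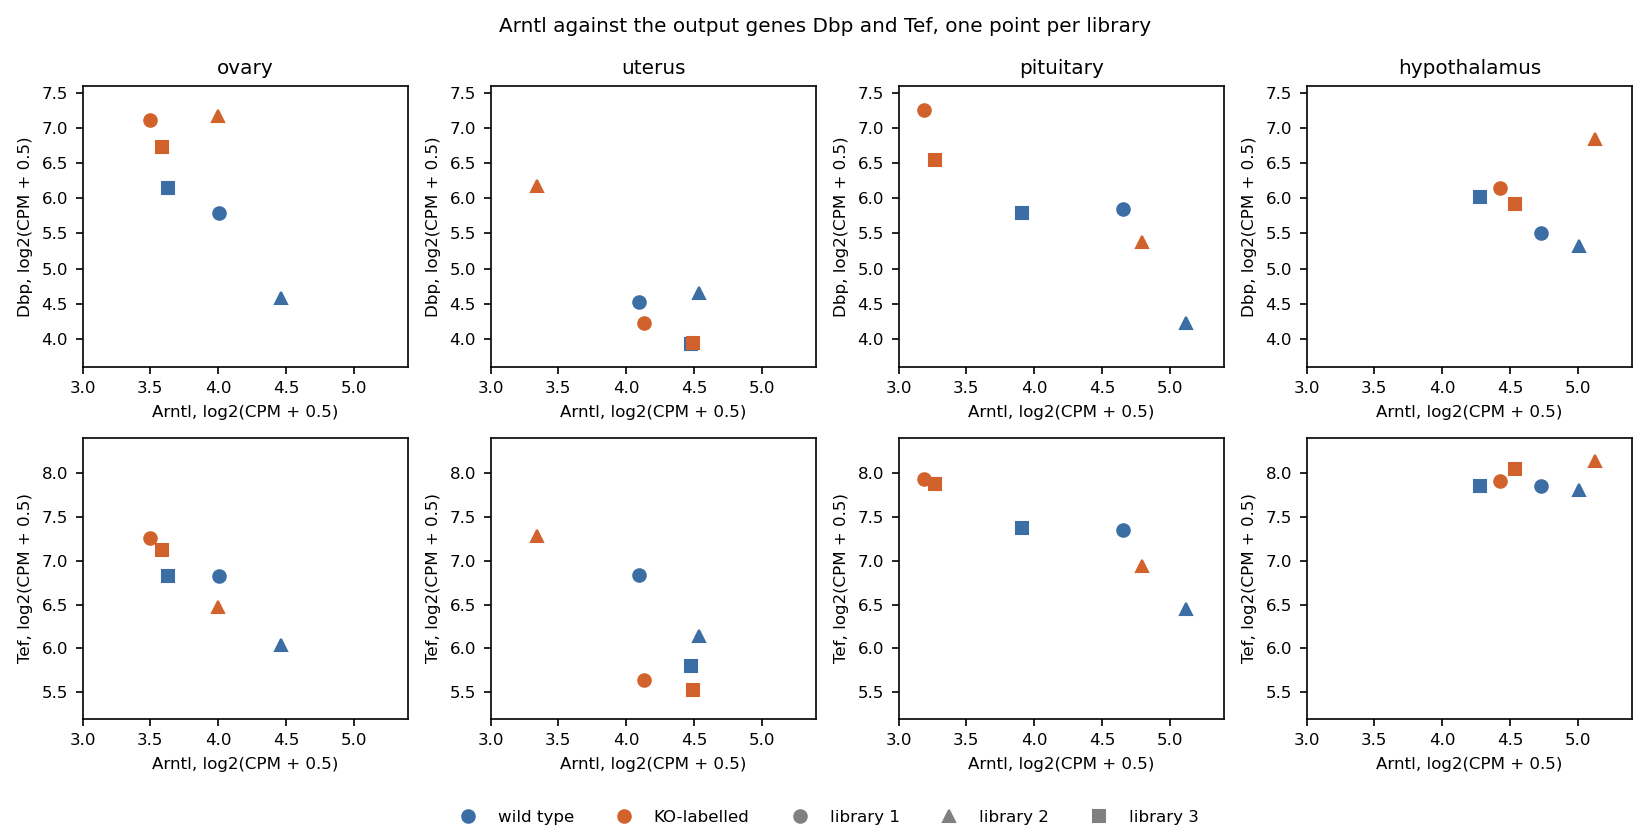
Log2(CPM + 0.5) of Dbp (top) and Tef (bottom) against that of Arntl in each tissue, 1 point per library, blue for wild type and orange for KO-labelled, with marker shape for the library number. Points run from upper left to lower right in ovary, uterus and pituitary. In the uterus KO-labelled library 2 lies farthest to the upper left, and without it r is -0.26 for Dbp and -0.45 for Tef. In the ovary Dbp has r = -0.0017 without the 2 libraries farthest from the median of Arntl. Tef in the hypothalamus is flat, and Dbp there has 1 library, KO-labelled 2, at the upper right.

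In the pituitary Tef and Arntl were in exact opposite order over the 6 libraries, with Pearson r = -0.94 (exact permutation p = 0.00139, adjusted p = 0.0333) and Spearman rho = -1 (exact p = 0.00278, adjusted p = 0.10). Without the 2 libraries farthest from the median of Arntl, r was -0.81. Dbp had r = -0.90 (exact p = 0.00278, adjusted p = 0.0333) and rho = -0.94 (exact p = 0.0167, adjusted p = 0.150), and r = -0.74 without those 2 libraries. Both relations kept their sign within genotypes, with r of -0.91 and -0.86 after centring each genotype, but then had adjusted p of 0.0625 and 0.0893 and passed no longer. Per2 (r = -0.91), Per3 (-0.88) and Nr1d2 (-0.87) were negative as well, and Cry1 was the 1 positive relation there (r = 0.76, exact p = 0.0931).

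In the ovary Tef had the strongest relation with Arntl, r = -0.94 (exact permutation p = 0.00556, adjusted p = 0.050, not under the threshold) and rho = -0.83 (exact p = 0.0583, adjusted p = 0.175). Dbp had r = -0.76, and without the 2 libraries farthest from the median of Arntl r was -0.0017, so this relation rested on them. Leaving out 1 library gave r between -0.97, without KO-labelled library 2, and -0.28, without wild-type library 2. In the uterus Nr1d2 had r = -0.95 (exact p = 0.0167, adjusted p = 0.10) and rho = -0.77 (exact p = 0.103, adjusted p = 0.247). Dbp had r = -0.89 (exact p = 0.0472, adjusted p = 0.131) but rho = -0.37 (exact p = 0.497, adjusted p = 0.617). Leaving out each library in turn gave r between -0.98 and -0.26 for Dbp in the uterus, the latter without KO-labelled library 2. Without that library Nr1d2 had r = -0.68.

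The hypothalamus differed in pattern, though no test of that difference was run. Cry2 had a positive relation with Arntl, r = 0.94 (exact permutation p = 0.00278, adjusted p = 0.0333) and rho = 0.94 (exact p = 0.0167, adjusted p = 0.150), with r = 0.90 without the 2 farthest libraries. Dbp had r = 0.10 (exact p = 0.839), which was -0.93 without KO-labelled library 2. Nr1d2 had a negative r there (-0.72, exact p = 0.0472, adjusted p = 0.131). It was -0.088 without the 2 farthest libraries and -0.52 without KO-labelled library 2. Rank correlations of a gene's deviation with transcript length spread widely among hypothalamus libraries, as given above. With that trend removed from every library, 0 of the 36 relations passed, and r was -0.92 for Tef and -0.90 for Dbp in the pituitary and 0.97 for Cry2 in the hypothalamus, each with an adjusted p of 0.075.

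The log2 ratio of Dbp to Arntl was taken within each library as a difference of log2(CPM + 0.5), so the scaling of a library enters it only through the added 0.5. It was 1.79, 0.11 and 2.52 in wild-type against 3.63, 3.18 and 3.15 in KO-labelled ovary, with group means of 1.47 ± 1.23 and 3.32 ± 0.27 (SD, n = 3). The groups did not overlap, and the difference of 1.85 compares with a range of 3.51 over the 6 libraries. In the pituitary the ratio was 1.19, -0.90 and 1.88 in wild type against 4.07, 0.59 and 3.28 in KO-labelled libraries. Its difference of 1.92 compares with a range of 4.97, and the groups overlapped through library 2.

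In the uterus the ratio was 0.43, 0.12 and -0.55 in wild type against 0.09, 2.84 and -0.55 in KO-labelled libraries. Library 2 of the KO-labelled uterus alone stood above 0.5, and without it the difference of the means went from 0.79 to -0.23. In the hypothalamus the ratio was 0.77, 0.31 and 1.74 against 1.72, 1.72 and 1.39, with overlapping groups. Means in the hypothalamus were 0.94 ± 0.73 and 1.61 ± 0.19. No p is given for this ratio, which was chosen with results of these data known.

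**Figure D5:**
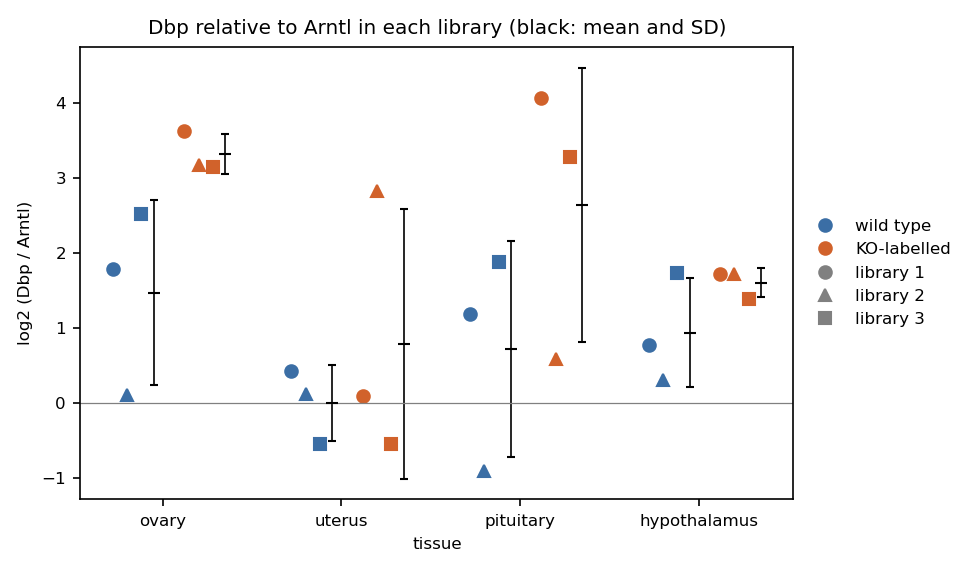
Log2 of the Dbp level over the Arntl level in each library by tissue, blue for wild type and orange for KO-labelled, with the mean and SD of 3 libraries in black. KO-labelled values lie above all wild-type values in the ovary, and in the other 3 tissues the groups overlap.

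Genes outside the set were ranked by how closely they followed Dbp or Arntl from library to library, after centring each of the 8 groups, over 24 libraries and 9199 genes with at least 5 CPM on average in every tissue. These correlations are descriptions, since the libraries share depth, RNA quality and dissection. Among the clock genes themselves, Dbp followed Tef (r = 0.84), Nr1d1 (0.81), Per2 (0.64) and Per3 (0.63), and opposed Arntl (-0.73), while Per1 (0.11) did not follow it. Arntl opposed Nr1d2 (-0.83), Tef (-0.78), Per2 (-0.69) and Per3 (-0.64). Its relations with Nr1d1 (-0.29), Cry2 (-0.24) and Per1 (-0.13) were weaker, and that with Cry1 was positive (0.14). The genes most like Dbp were Zfp467 (0.78), Sorbs3 (0.78), Marveld1 (0.77), the folliculin gene Flcn (0.77) and the cation channel gene Trpm4 (0.76), so Tef and Nr1d1 ranked above every gene outside the set. The genes most opposed to Dbp were Akap7 (-0.75), Marcks (-0.73), the tissue plasminogen activator gene Plat (-0.72), Riok1 (-0.72) and Exoc1 (-0.70). The genes most like Arntl were Prmt6 (0.78), which encodes an arginine methyltransferase, Akap8 (0.72), the IκB kinase gene Ikbkb (0.69), Slc3a2 (0.68) and Nt5c2 (0.68). Those most opposed to Arntl were Mettl7a1 (-0.82), Letmd1 (-0.71), E2f6 (-0.69), Mat2b (-0.68) and Cpped1 (-0.67). Mettl7a1 thus lay between Nr1d2 and Tef, and Letmd1 between Tef and Per2.

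A wider list of 25 genes of the clock, its kinases and its outputs was read from the same fits. In every tissue 0 of its tested members passed FDR 0.05 by edgeR, and 2, 5, 3 and 1 had an unadjusted p under 0.05 in ovary, uterus, pituitary and hypothalamus, against 7.68%, 12.7%, 12.3% and 6.76% of all genes. Its median log2 fold change was 0.07 in ovary (24 tested), 0.06 in uterus, 0.17 in pituitary and -0.17 in hypothalamus (25 tested in each). Npas2, a paralogue of Clock that also pairs with BMAL1, had the smallest p in the uterus. It measured 38.1, 42.6 and 32.6 CPM in wild type against 10.2, 11.5 and 22.5 in KO-labelled uterus, without overlap (log2 fold change -1.36, SE 0.29, edgeR adjusted p = 0.0862). Rgs16, a regulator of G protein signalling, came next there at 17.5 to 19.7 against 10.0 to 14.6 CPM (adjusted p = 0.215).

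In the ovary Ciart, a repressor of the CLOCK and BMAL1 pair, measured 3.81, 2.08 and 3.93 CPM in wild type against 6.32, 6.28 and 5.54 in KO-labelled libraries, without overlap (log2 fold change 0.88, SE 0.33, edgeR adjusted p = 0.597). Tspo, which encodes a mitochondrial translocator protein, measured 13.8 to 23.3 against 26.6 to 48.3 CPM. In the pituitary Bhlhe40, a basic helix-loop-helix repressor that binds E-boxes, measured 67.5, 65.9 and 82.7 CPM against 93.5, 99.6 and 103.9, a log2 difference of 0.43 (SE 0.15, adjusted p = 0.320), and Usp2, a deubiquitinase, 25.6 to 49.1 against 49.0 to 64.9 CPM. In the hypothalamus Rorb, a nuclear receptor gene, measured 35.4 to 50.9 CPM in wild type against 21.4 to 33.7 in KO-labelled libraries, and Clock 66.1 to 122 against 43.9 to 94.3, both at an adjusted p of 0.588.

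Glucocorticoids and neural or hormonal stimulation act on Per1 and Per2, so 10 glucocorticoid-induced and 10 immediate early genes were read beside them. In both lists 0 members passed FDR 0.05 by edgeR in any tissue. At an unadjusted p under 0.05 the glucocorticoid list counted 4, 7, 2 and 2 members and the immediate early list 4, 1, 0 and 1, in the order ovary, uterus, pituitary and hypothalamus, where 7.68%, 12.7%, 12.3% and 6.76% of all genes did. In the uterus the glucocorticoid list stood at 7 of 10 such members, with a median log2 fold change of -0.50 and 9 of 10 negative. The exception was Cdkn1a, a cell cycle inhibitor, at 10.8, 11.7 and 14.8 CPM in wild type against 87.3, 78.6 and 21.3 in KO-labelled uterus (log2 fold change 2.33, SE 0.44, edgeR adjusted p = 0.0649). Sult1a1, a sulfotransferase, measured 50.4 to 68.3 against 19.1 to 34.8 CPM (adjusted p = 0.0968). The metallothionein genes Mt1 and Mt2 led this list in pituitary and hypothalamus, with Mt2 at 29.0 to 36.6 against 44.8 to 66.0 CPM in pituitary and 41.9 to 87.7 against 87.9 to 119 CPM in hypothalamus. In the uterus both had lower means in KO-labelled libraries, with Mt1 at 347 against 236 CPM and Mt2 at 213 against 148 CPM. In the ovary Mt2 measured 39.1 to 53.6 against 69.0 to 191 CPM, and Pdk4, a pyruvate dehydrogenase kinase, 33.4 to 63.1 against 16.2 to 26.0 CPM, both at an adjusted p of 0.597.

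The immediate early list had median log2 fold changes of -0.61 in ovary, 0.12 in uterus, 0.58 in pituitary and -0.25 in hypothalamus. Its smallest p were those of Nr4a1 and Fos in ovary, Nr4a1 and Fosb in uterus, Ier2 and Arc in pituitary, and Ier2 and Egr2 in hypothalamus, with adjusted p of at least 0.252. Fos measured 7.81 to 18.8 CPM in wild-type against 6.03 to 7.21 in KO-labelled ovary, where Per1 was 25.7 to 36.1 against 27.3 to 61.8. Nr4a1 in the ovary measured 32.5 to 47.4 against 37.4 to 200.1 CPM.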

How the data were processed

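Poly-A RNA was sequenced from 24 libraries of 4 mouse tissues and 2 genotypes with an unstranded kit, per the labels' protocols. Per gene symbol, the files deposited by the authors hold unnormalised read counts. Tools named in the submitters' processing notes are STAR, HTSeq, Trimmomatic, FastQC and DESeq2, on build mm10, and for these versions and settings were not given in the sources used here. A second kind of deposited file compares genotypes per tissue by log2 fold changes, p-values and a signal column, which per the file headers is the authors' mean normalised count.

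Of 24222 entries, 27 with a spreadsheet date as symbol (0.122% to 0.392% of counts) were left out. The 10 genes, the lists read beside them and the tests were chosen with earlier results of these data known. Named genes were all 10 members and the 2 genes of smallest p per list and tissue. The 5 genes outside the set most alike or most opposed to Dbp and to Arntl were also named. Genotypes were compared within each tissue with edgeR 4.0.16 in R 4.3.3 (quasi-likelihood F test, TMM, filterByExpr, robust, no block, Benjamini-Hochberg over all genes tested). Wild-type tissues were compared in 1 fit of 12 libraries and the interaction in 1 fit of 24. SEs match the F statistic, and p-values are two-sided. Relations used log2(CPM + 0.5) and exact permutations (scipy). Exon lengths and overlaps came from GENCODE M21, promoters from RefSeq. The fits were tested on simulated counts. All 24 replicate pairs differed by more than sampling noise (chi-square per degree of freedom at least 10.5), and p-values measure the spread between these libraries. Errors for single libraries cover counting only. Alternatives were RLE scaling, other filters, DESeq2 1.42.0, limma-voom (limma 3.58.1), the replicate number as a block, 1 fit over 24 libraries and leaving out each library.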

Additional observations from a re-analysis of the deposited data

How the results depend on the processing

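The counts of members past FDR 0.05 kept their value or stayed within 1.5 times of it in 111 of 126 alternative fits and non-overlap counts. Among counts past FDR 0.05 the exceptions were between genotypes. DESeq2 in the ovary called 1 member (Per3). The edgeR fit with the replicate block in the pituitary called 2, Per1 (adjusted p = 0.0420) and Dbp (0.00223). Same-numbered pituitary libraries of the 2 genotypes correlated at 0.25, 0.07 and 0.01 in their deviations. For 2 of the 3 wild-type pituitary libraries the closest KO-labelled library was that of the same number. In the other tissues at least 1 pair was negative. The labels do not say whether the numbers pair samples, and these correlations cannot decide it. Over all genes the counts moved from 0 to 56 (DESeq2), 34 (1 fit over 24 libraries) and 1 (no filter) in the ovary, from 52 to 537 (DESeq2) and 108 (no filter) in the uterus, and from 0 to 8 (DESeq2) in the hypothalamus. The uterus count was 5, 0 and 2 without wild-type library 1, 2 and 3, and 128, 148 and 171 without KO-labelled library 1, 2 and 3. In the pituitary they moved from 6 to 50 (DESeq2), 33 (block), 16 (no filter) and 1 (limma-voom), and to 1, 10 and 2 without wild-type library 2, wild-type library 3 and KO-labelled library 3. In the ovary the count was 2 without KO-labelled library 2. For the interaction they moved from 9 to 164 (DESeq2), 5 (limma-voom), 4 (RLE) and 2 (block), and from 2 to 23 (the latter without KO-labelled ovary library 2) when 1 library was left out, each with 0 members. Leaving out each library gave 4 to 9 members without overlap in ovary, 0 to 2 in uterus, 1 to 5 in pituitary and 1 to 3 in hypothalamus, against 23% to 33.2%, 25.4% to 33.4%, 28.8% to 30.5% and 14.2% to 42.2% of all genes. Fewer libraries overlap less often by construction. It gave 6 to 8 members past the tissue test in wild type.

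Log2 fold changes of genotype that changed sign when 1 library was left out ranged from -0.0076 to 0.36 for Nr1d2 in the ovary and from -0.048 to 0.53 in the pituitary. In the uterus the ranges were -0.85 to 0.79 for Per2, -1.04 to 0.46 for Per3, -0.29 to 0.24 for Cry2, -0.34 to 1.12 for Dbp, -0.75 to 0.42 for Tef, -0.12 to 0.73 for Nr1d1 and -0.0039 to 0.79 for Nr1d2. In the hypothalamus they were -0.12 to 0.44 for Per1, -0.14 to 0.18 for Per3, -0.16 to 0.35 for Cry2 and -0.26 to 0.16 for Arntl. Uterus Per2 was -0.027 with limma-voom and -0.019 with the block, uterus Tef -0.11 and -0.12, and hypothalamus Arntl 0.025 in 1 fit over 24 libraries. The Cry1 contrast of hypothalamus and pituitary was 0.21 in KO-labelled libraries. Of the 3 relations with Arntl, 0 passed after centring each genotype and 0 with length trends removed, the latter chosen after seeing the data. The relation of Dbp with Arntl in the hypothalamus was 0.10, -0.042 on plain library totals, -0.85 without the 2 farthest libraries, and -0.93 to 0.54 without 1. With the mean of the 3 Per genes in place of Dbp, the hypothalamus ratio difference was 0.0068. The cause of these changes was not tested. Counting error limits Per2 and Arntl most, the genes of fewest counts.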
